A study of Homo sapiens with 12 samples.

Results

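The genes described here are 10 parts of the machinery that takes a cell out of G1 phase, and they were chosen by name and role, with no threshold on their values, although earlier results of these data were known. They were the D-type cyclins CCND1 and CCND3, their kinases CDK4 and CDK6, the E-type cyclins CCNE1 and CCNE2, their kinase CDK2, the phosphatase CDC25A, the retinoblastoma gene RB1 and the transcription factor E2F1. All 10 were found, each at a single identifier, among the 60902 genes of the table. All 10 also passed the filter on low levels, a mean of 1 TPM or more over the 12 libraries. TPM is a share of all transcripts of a library after division by length, scaled to the same total in each, so levels can be set side by side between genes.

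RNA was sequenced from A549/DDP, a subline of A549, which is a human lung adenocarcinoma cell line. A549/DDP cells resist cisplatin (DDP), a platinum compound that forms crosslinks in DNA. There were 4 groups of 3 libraries. In TRF+DDP, a medium schedule that imitates time-restricted feeding (TRF) was combined with DDP, in TRF the schedule was given alone, in DDP the drug was added to normal medium, and CON had normal medium alone. The TRF schedule alternated 6 h in normal medium with 18 h in medium lacking both glucose and serum. Normal medium holds 2 g/L glucose and 10% fetal bovine serum. Cells were washed with PBS at each change of medium. The phase of the cycle at which RNA was taken is not stated, and its part in the results was not tested. All 4 groups came from a line kept in 1 µg/mL DDP, and whether the drug was withdrawn before the experiment is not stated, so the CON and TRF cells may have met DDP earlier. A dose of 2 µg/mL for 48 h is given beside a PCR panel, and the dose and time for sequencing alone are not stated. The study calls the replicates of each group biological, while the labels give replicate numbers only and neither says how separate the cultures were, so each p-value below measures the spread between these libraries.

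Growth signals raise the D-type cyclins, which bind CDK4 or CDK6 and begin to phosphorylate RB1. The E-type cyclins with CDK2, which CDC25A activates by removing inhibitory phosphates, phosphorylate RB1 further, and this frees E2F factors to transcribe genes for DNA replication. CDK inhibitors of the CDKN1 and CDKN2 families restrain these kinases, and A549 is known for the loss of one of them, CDKN2A.

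The number of reads behind a TPM value is unknown, so counting error cannot be stated. Genes at 1 TPM or more numbered 13384 to 13500 per library in TRF+DDP, 13029 to 13307 in TRF, 13866 to 14028 in DDP and 13726 to 13854 in CON. The share of TPM from mitochondrially encoded genes was 8.28% to 8.55% in TRF+DDP, 6.37% to 8.84% in TRF, 9.88% to 9.99% in DDP and 10.3% to 10.8% in CON. It was lower in every TRF+DDP and TRF library than in every DDP and CON library, so it moved with the medium as several genes below did, and its part in those results was not tested. Of 6 epithelial markers, KRT7, KRT8 and KRT18 were expressed while EPCAM, KRT19 and CDH1 were at 0.48 TPM or less in every library. The epithelial sum was 2687 to 2876 TPM in TRF+DDP, 2715 to 2881 TPM in TRF, 2296 to 2586 TPM in DDP and 1850 to 1925 TPM in CON, higher in every library with TRF medium than in every library without it. The 6 fibroblast markers summed to 5.92 to 6.99 TPM in TRF+DDP, 10.5 to 11.9 TPM in TRF, 16.5 to 21.0 TPM in DDP and 14.1 to 16.6 TPM in CON, lower in every library with TRF medium, and COL1A1 was the 1 of them that passed the filter. Both sums moved with the medium, and their part in the results below was not tested. The 6 leukocyte markers summed to 3.62 to 5.2 TPM in TRF+DDP, 1.51 to 1.72 TPM in TRF, 4.54 to 5.41 TPM in DDP and 3.21 to 3.53 TPM in CON, and endothelial markers to 0.01 to 0.28 TPM in all libraries.

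E2F factors bind promoters of their own pathway, and the sequences of the promoters of CDC25A and E2F1 are shown because they hold a core E2F motif. CCNE1 is shown beside them because its transcript was higher together with CDC25A in TRF medium. The RefSeq promoter table (GRCh38.p14, 250 bases before to 50 bases after the start of a gene) held 7 of the 10 genes. CCND1, CCNE2 and CDK2 were not in it. TTTCCCGC, TTTGGCGC, TTTGCCGC and TTTCGCGC were searched on both strands. At least 1 of them was in 3.31% of the 35116 promoters of this table, and 0.145% held 2 or more matches. The promoter of CDC25A (chr3:48188368-48188667, minus strand) held 1 match, 44 bases before the start, and that of E2F1 (chr20:33686336-33686635, minus strand) held 2, beginning 33 and 20 bases before the start, the first of them on the opposite strand. These 2 did not overlap. The window of CCNE1 (chr19:29811741-29812040, plus strand) and those of CCND3, CDK4 and CDK6 held none of these letters, which says nothing on whether E2F factors act there. The window of RB1 in this table, also with no match, surrounds an internal transcript start 172724 bases downstream of the first start of the gene (GENCODE v29, GRCh38), so the promoter of the full-length RB1 transcript was not searched. For the other 6 genes that distance was at most 3703 bases. Each sequence runs 5′ to 3′ along the gene, with matches in capitals.
CDC25A: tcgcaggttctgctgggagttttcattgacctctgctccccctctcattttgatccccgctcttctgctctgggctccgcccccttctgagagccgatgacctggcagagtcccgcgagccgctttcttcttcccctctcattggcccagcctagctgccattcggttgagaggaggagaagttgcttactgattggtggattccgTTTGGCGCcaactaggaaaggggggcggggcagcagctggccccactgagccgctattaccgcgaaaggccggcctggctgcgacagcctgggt
E2F1: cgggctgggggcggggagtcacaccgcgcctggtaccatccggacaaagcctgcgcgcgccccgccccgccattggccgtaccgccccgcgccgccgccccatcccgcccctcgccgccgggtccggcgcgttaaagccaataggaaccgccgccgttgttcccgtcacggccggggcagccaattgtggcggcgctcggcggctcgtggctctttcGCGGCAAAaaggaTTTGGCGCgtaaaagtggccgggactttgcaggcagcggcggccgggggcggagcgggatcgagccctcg
CCNE1: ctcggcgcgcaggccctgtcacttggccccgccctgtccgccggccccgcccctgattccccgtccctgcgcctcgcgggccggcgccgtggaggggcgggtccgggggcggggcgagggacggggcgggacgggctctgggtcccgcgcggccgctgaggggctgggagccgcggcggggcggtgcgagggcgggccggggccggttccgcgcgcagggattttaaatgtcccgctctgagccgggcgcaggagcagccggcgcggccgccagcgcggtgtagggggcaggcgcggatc

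Adding TRF medium to cisplatin raised both E-type cyclins and CDC25A and lowered CDK6. In TRF+DDP against DDP, 3 of the 10 genes rose (CCNE1, CCNE2 and CDC25A) and 1 fell (CDK6). A gene was called when its fold exceeded 1.5 on log2(TPM + 1) and its adjusted p was under 0.05 in limma's moderated test, with Benjamini-Hochberg adjustment over all 13854 genes tested. By this rule 11.8% of all genes rose and 21.4% fell. By the adjusted p alone, 4 of the 10 were higher and 4 lower, while 27.0% of all genes were higher and 38.4% lower. The median log2 fold change of the 10 genes was -0.03, against -0.10 for all genes tested. The pseudocount of 1 makes a fold change on this scale smaller than the ratio of TPM for low genes, here CCNE2 and CDK6. In cultures measured in bulk, fewer cells with a transcript and less of it per cell cannot be told apart.

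Adding cisplatin to TRF medium gave fewer calls. In TRF+DDP against TRF, CCNE2 alone rose and none of the 10 fell, while 10.2% of all genes rose and 6.1% fell. By the adjusted p alone 6 were higher and 2 lower, beside 28.1% and 19.8% of all genes. Without TRF replicate 2, or without TRF+DDP replicate 2, RB1 was called as well, which makes 2 of 10. Against CON, TRF+DDP cells had 4 genes higher (CCND1, CCNE1, CCNE2 and CDC25A) and CDK6 lower, with 15.6% of all genes called higher and 19.5% called lower. By the adjusted p alone 5 of the 10 were higher and 1 lower, against 31.9% and 35.3% of all genes.

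TRF medium without the drug raised CCND1, CCNE1, CCNE2 and CDC25A relative to CON, and lowered none by the full rule. With a pseudocount of 0.1, or without TRF replicate 2, CDK6 was called lower here as well, which makes 5 of 10. Of all genes, 8.41% rose and 17.1% fell in TRF against CON. By the adjusted p alone all 10 differed, 7 higher and 3 lower, against 23.7% higher and 37.0% lower of all genes. Cisplatin alone raised CCNE2 only, a call that was lost without any 1 of 3 libraries, in DDP against CON, where 1.86% of all genes rose and 0.159% fell. By the adjusted p alone 7 of the 10 were higher and 0 lower, beside 10.0% and 2.17% of all genes. The median log2 fold change of the 10 genes was 0.21 in TRF against CON and 0.44 in DDP against CON, beside -0.11 and 0.06 for all genes. The comparisons share groups, so their counts are not independent.

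The medians of all genes depended on the scaling. A TMM-style scaling moved the median in TRF against CON from -0.11 to 0.00 and that in TRF+DDP against DDP from -0.10 to 0.00, which left the calls of the 10 genes in these 2 comparisons as they were. It changed the split of all genes: 48.5% of the genes called in TRF against CON were higher under it and 32.9% as deposited, and 47.0% and 35.5% in TRF+DDP against DDP.

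**Figure D1:**
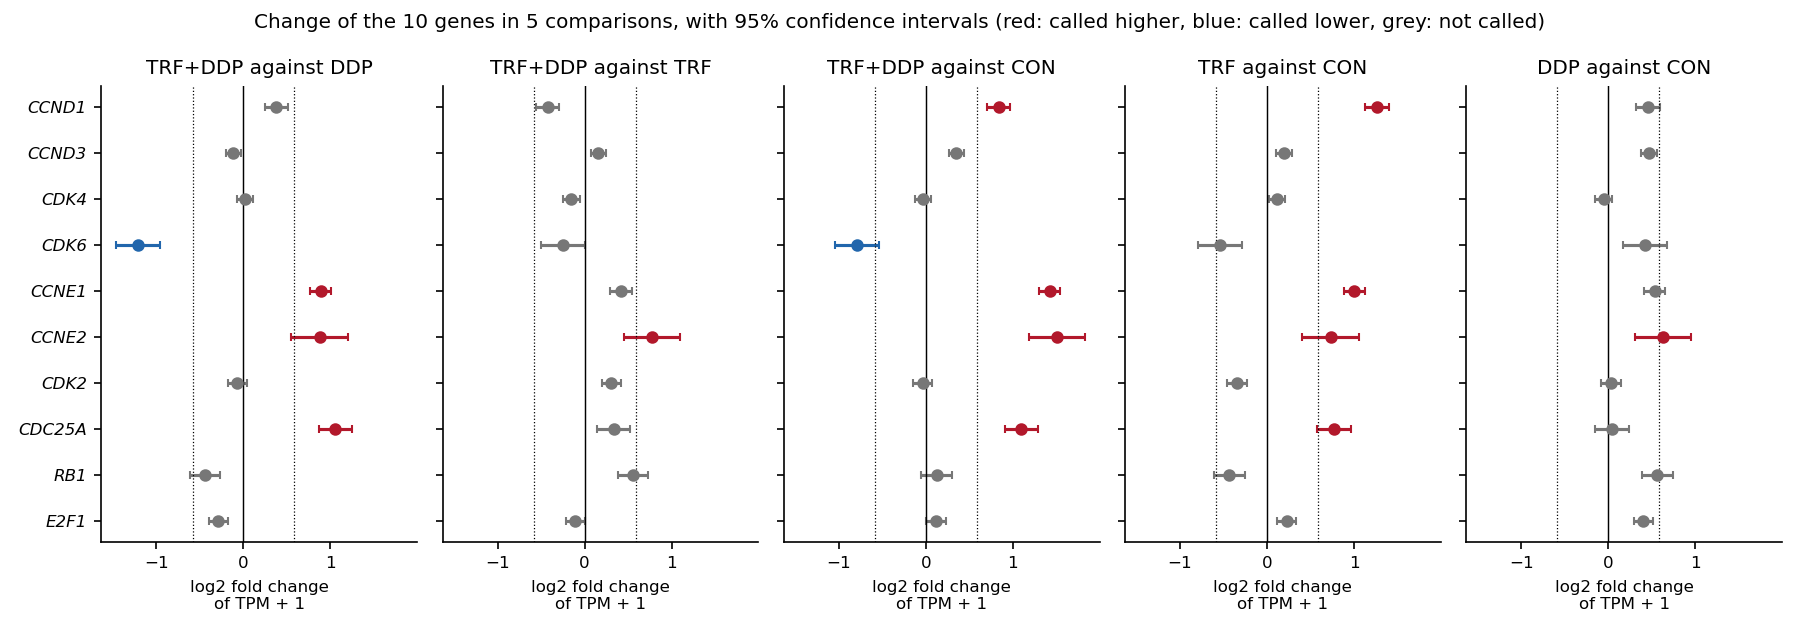
Log2 fold change of TPM + 1 (x axis) of the 10 genes (y axis) in 5 comparisons, each with its 95% confidence interval from limma. Dotted lines mark a 1.5-fold change, red points were called higher and blue points called lower. CCNE1, CCNE2 and CDC25A lie right of the dotted line in TRF+DDP against DDP and CDK6 left of it.

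Cyclin D1, the product of CCND1, links growth factor signals to CDK4 and CDK6. CCND1 was at 93.8, 102.7 and 92.2 TPM in TRF+DDP, 123, 139 and 126 TPM in TRF, 76.6, 75.2 and 69.3 TPM in DDP, and 55.4, 54.0 and 50.7 TPM in CON. The 4 groups did not overlap, with TRF highest, then TRF+DDP, DDP and CON. CCND1 rose in TRF, with a mean 2.43 times that of CON (log2 fold change 1.26 ± 0.06 SE, limma adjusted p = 7.3e-09). It also rose in TRF+DDP, to 1.80 times CON (0.84 ± 0.06, limma adjusted p = 1.2e-07). Within TRF medium, cells with DDP had less CCND1 than cells without (-0.43 ± 0.06, limma adjusted p = 0.00014), and within normal medium cells with DDP had more (0.46 ± 0.06, limma adjusted p = 0.00056), both under the fold of 1.5. The difference between these 2 changes passed its own test (-0.88 ± 0.09, limma adjusted p = 1.9e-05).

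Cyclin D3 (CCND3) is the other D-type cyclin that these cells expressed. CCND3 measured 155, 153 and 148 TPM in TRF+DDP, 135, 133 and 142 TPM in TRF, 165, 158 and 172 TPM in DDP, and 117.0, 120.1 and 120.4 TPM in CON. CON was lowest and DDP highest, with no overlap between the groups. No fold change of CCND3 reached 1.5: the largest was in DDP against CON (0.47 ± 0.04, limma adjusted p = 2.9e-05), and that in TRF+DDP against DDP was -0.11 ± 0.04 (limma adjusted p = 0.028), which became 0.00 with a TMM-style scaling. The change with DDP was smaller in TRF medium than in normal medium by 0.31 on the log2 scale (-0.31 ± 0.06, limma adjusted p = 0.0020). CCND2, the remaining D-type cyclin, was listed at 0 TPM in 10 of the 12 libraries and at no more than 0.02 TPM in the others.

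The balance of the D-type cyclins therefore differed with the medium. CCND1 made up 38.7% ± 1.26 of D-type cyclin TPM in TRF+DDP, 48.7% ± 2.19 in TRF, 30.9% ± 1.86 in DDP and 30.9% ± 1.25 in CON (SD, n = 3 each). It ranged over 37.7% to 51.2% in the 6 libraries with TRF medium and over 28.8% to 32.2% in the 6 without it, and these ranges did not overlap. The mean difference with TRF medium was 12.8 percentage points (exact permutation test within each drug state, 2-sided p = 0.005, the smallest its 400 arrangements allow, adjusted p = 0.015 over 6 such tests). The difference with DDP, averaged over the media, was -5.03 points (exact permutation p = 0.05, adjusted p = 0.075). The media were unlike: the share was 30.9% in both DDP and CON, but 38.7% in TRF+DDP against 48.7% in TRF. Summed over CCND1, CCND2 and CCND3, the level was 249 ± 7.74 TPM in TRF+DDP, 266 ± 7.37 TPM in TRF, 239 ± 4.78 TPM in DDP and 173 ± 1.47 TPM in CON (SD, n = 3 each).

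**Figure D2:**
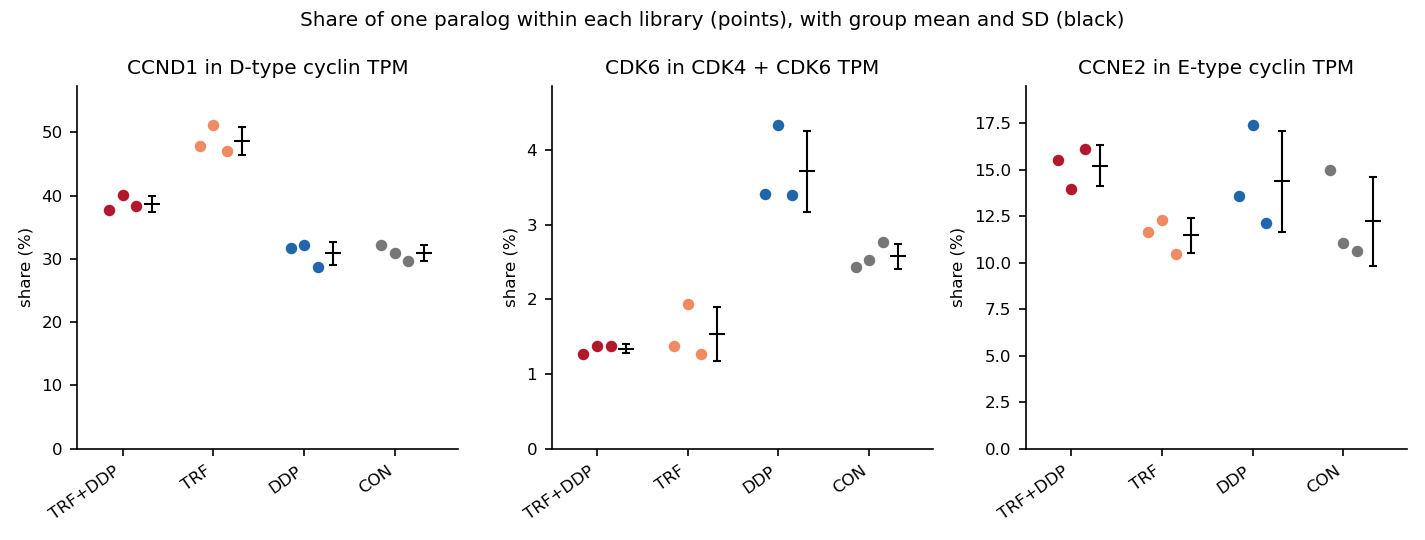
Share (y axis, %) of CCND1 in the TPM of the D-type cyclins, of CDK6 in the TPM of CDK4 and CDK6, and of CCNE2 in the TPM of CCNE1 and CCNE2, in each library of the 4 groups. Points are libraries and black bars the mean and SD of 3 libraries. The CCND1 share is 37.7% or more in all 6 libraries with TRF medium and 32.2% or less in the others, while the CDK6 share is 1.94% or less in those 6 and 2.44% or more in the others.

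CDK4, a kinase partner of the D-type cyclins, had the highest level of the 10 genes in every group. It was at 215, 204 and 198 TPM in TRF+DDP, 228, 219.9 and 239 TPM in TRF, 209.7, 195 and 205 TPM in DDP, and 209.7, 210.0 and 212 TPM in CON. TRF was above the other groups, and the means of TRF+DDP, DDP and CON were 205.7, 203 and 210.6 TPM. CDK4 was called in no comparison. Its log2 fold change was 0.02 in TRF+DDP against DDP (95% interval -0.08 to 0.11) and -0.05 in DDP against CON (-0.15 to 0.04), intervals that hold no change as large as 1.5-fold.

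CDK6, the paralog of CDK4, was the lowest of the 10 genes in TRF+DDP and in TRF. It was at 2.77, 2.85 and 2.75 TPM in TRF+DDP, 3.18, 4.36 and 3.08 TPM in TRF, 7.40, 8.85 and 7.22 TPM in DDP, and 5.24, 5.46 and 6.03 TPM in CON. The groups did not overlap and ran from TRF+DDP, the lowest, through TRF and CON to DDP. CDK6 fell in TRF+DDP to 0.357 times its mean in DDP (log2 fold change -1.21 ± 0.12 SE, limma adjusted p = 1.5e-06) and to 0.500 times its mean in CON (-0.79 ± 0.12, limma adjusted p = 5.9e-05). In TRF against CON the change was -0.54 ± 0.12 (limma adjusted p = 0.0015), under the fold of 1.5. It was called without TRF replicate 2, the highest TRF library (-0.67), and with a pseudocount of 0.1 (-0.66, limma adjusted p = 0.0014), and the ratio of its mean TPM in TRF to that in CON was 0.635.

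The change of CDK6 with DDP differed between the media. It was 0.42 ± 0.12 in DDP against CON (limma adjusted p = 0.035) and -0.25 ± 0.12 in TRF+DDP against TRF (limma adjusted p = 0.097), a difference of -0.67 ± 0.16 (limma adjusted p = 0.0091). CDK6 made up 1.34% ± 0.057 of the TPM of CDK4 and CDK6 in TRF+DDP, 1.53% ± 0.36 in TRF, 3.72% ± 0.54 in DDP and 2.58% ± 0.17 in CON (SD, n = 3 each). The share was 1.71 points lower with TRF medium on average (-1.71 points, exact permutation test, p = 0.005, adjusted p = 0.015). It ran from 1.27% to 1.94% in the 6 libraries with TRF medium against 2.44% to 4.34% in the 6 without. The difference with DDP, averaged over the media, was 0.47 points (exact permutation p = 0.11, adjusted p = 0.13). With DDP the mean share was higher in normal medium and lower in TRF medium.

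Cyclin E1 (CCNE1) activates CDK2 at the passage into S phase. CCNE1 was at 48.7, 51.1 and 48.8 TPM in TRF+DDP, 36.5, 34.9 and 39.3 TPM in TRF, 25.9, 26.9 and 26.1 TPM in DDP, and 18.5, 18.0 and 17.0 TPM in CON. The 4 groups were fully apart and stood in that order. CCNE1 rose in TRF+DDP to 1.88 times DDP (log2 fold change 0.89 ± 0.06 SE, limma adjusted p = 3.2e-08) and to 2.78 times CON (1.42 ± 0.06, limma adjusted p = 4.6e-10). It rose in TRF to 2.07 times CON (1.01 ± 0.06, limma adjusted p = 1.9e-08). The changes with DDP, 0.42 ± 0.06 in TRF medium and 0.53 ± 0.06 in normal medium, were under the fold of 1.5, and their difference did not pass its test (-0.12, 95% interval -0.29 to 0.05).

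Cyclin E2 (CCNE2), the paralog of CCNE1, was the one gene of the 10 called higher in all 5 pairwise comparisons. It was at 8.95, 8.31 and 9.39 TPM in TRF+DDP, 4.82, 4.88 and 4.59 TPM in TRF, 4.07, 5.67 and 3.61 TPM in DDP, and 3.27, 2.24 and 2.02 TPM in CON. TRF+DDP stood above all other libraries, CON below all others, and TRF lay within the range of DDP. In TRF+DDP it rose to 2.00 times DDP (log2 fold change 0.88 ± 0.15 SE, limma adjusted p = 0.00022), 1.86 times TRF (0.78 ± 0.15, limma adjusted p = 0.0010) and 3.54 times CON (1.51 ± 0.15, limma adjusted p = 1.8e-06). It rose to 1.90 times CON in TRF (0.73 ± 0.15, limma adjusted p = 0.0010).

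The call of CCNE2 as higher in DDP against CON lay near its thresholds, and other processing lost it too, as given further below. All DDP libraries were above all CON libraries for CCNE2. Its log2 fold change was 0.63 ± 0.15 (limma adjusted p = 0.017), and the call was lost without CON replicate 2 (0.58), without CON replicate 3 (0.53) and without DDP replicate 2 (0.48), with limma adjusted p of 0.064, 0.066 and 0.057. Over all 22 settings the adjusted p of this value ran from 0.0075 to 0.066. Without DDP replicate 3, 2 of the 10 genes were called in DDP against CON, CCNE2 and RB1. Together CCNE1 and CCNE2 summed to 58.4 ± 0.90 TPM in TRF+DDP, 41.6 ± 2.08 TPM in TRF, 30.7 ± 1.57 TPM in DDP and 20.4 ± 1.41 TPM in CON (SD, n = 3 each). CCNE2 was 15.2% ± 1.10 of that sum in TRF+DDP, 11.5% ± 0.92 in TRF, 14.4% ± 2.72 in DDP and 12.2% ± 2.41 in CON. The share differed by 0.038 points with TRF medium (exact permutation test, p = 0.98) and by 2.95 points with DDP (exact p = 0.03, adjusted p = 0.06), neither of which passed after adjustment.

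**Figure D3:**
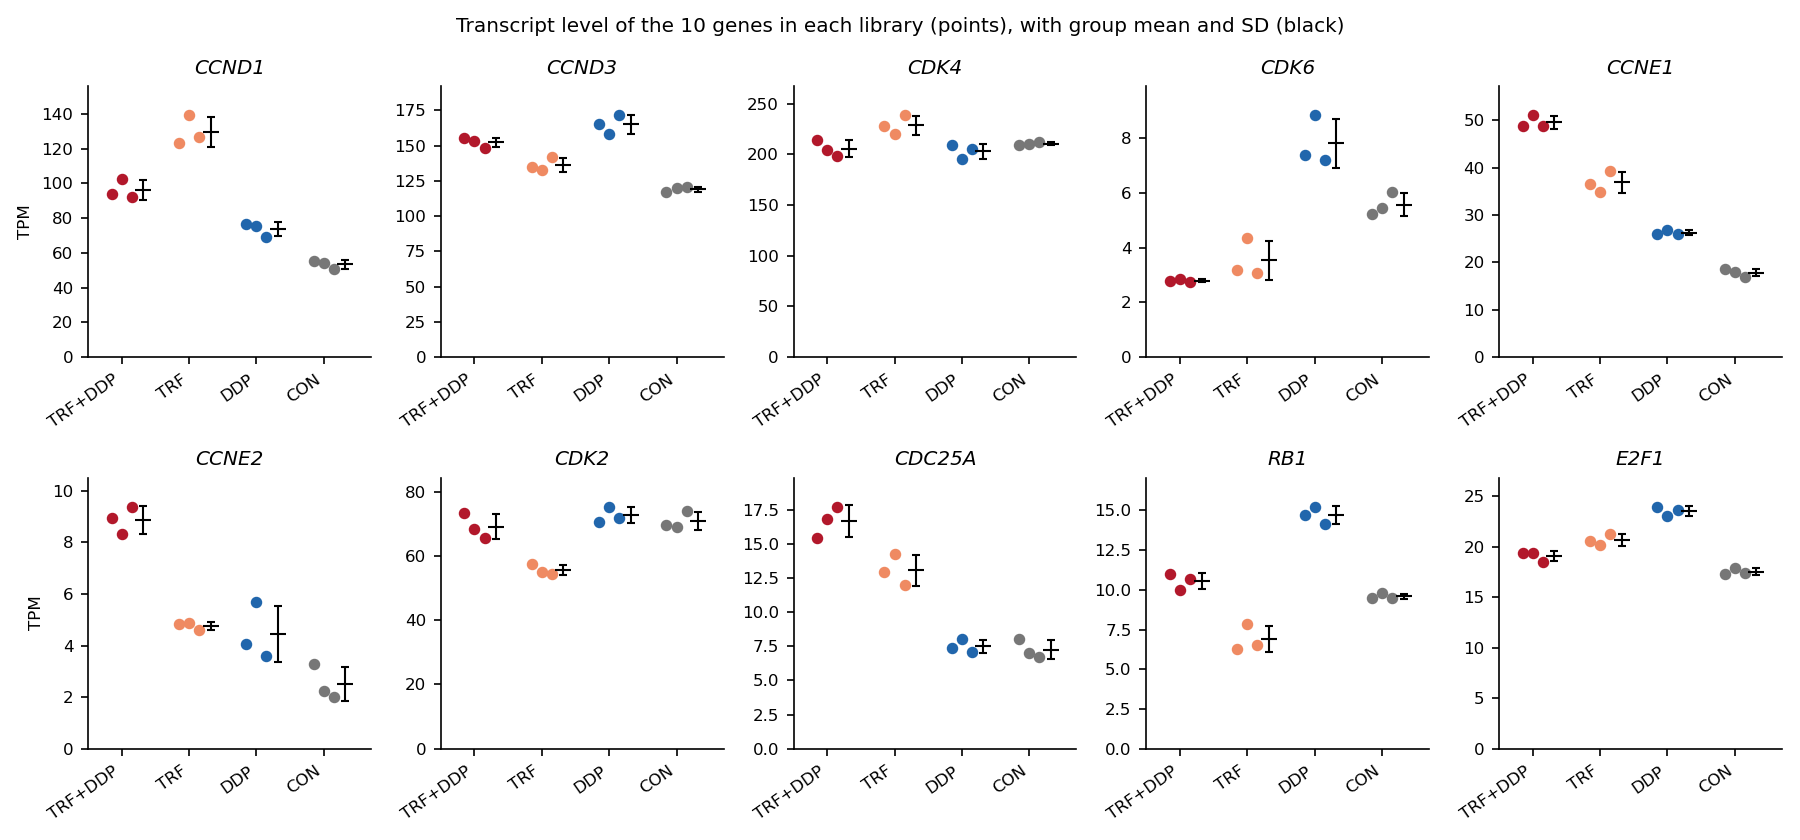
TPM (y axis, from 0) of each of the 10 genes in the libraries of TRF+DDP, TRF, DDP and CON (x axis). Points are libraries and black bars the mean and SD of 3 libraries. CCNE1 steps down from TRF+DDP through TRF and DDP to CON with no overlap, CDC25A has means of 7.49 TPM in DDP and 7.26 TPM in CON, and CDK6 is highest in DDP.

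CDK2, the kinase that the E-type cyclins activate, had levels of 73.5, 68.5 and 65.5 TPM in TRF+DDP, 57.5, 55.1 and 54.5 TPM in TRF, 70.6, 75.4 and 71.9 TPM in DDP, and 69.6, 69.1 and 74.2 TPM in CON. TRF was below every other library, and the other groups overlapped. CDK2 was called in no pairwise comparison: it was -0.34 ± 0.05 in TRF against CON (limma adjusted p = 9.5e-05) and 0.31 ± 0.05 in TRF+DDP against TRF (limma adjusted p = 0.00039), both under the fold of 1.5. In TRF+DDP against DDP it was -0.07 (95% interval -0.18 to 0.04), which turned to 0.05 with a TMM-style scaling. Its change with DDP was larger in TRF medium than in normal medium (0.27 ± 0.07, limma adjusted p = 0.014).

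CDC25A, whose promoter is printed above with 1 E2F match, removes inhibitory phosphates from CDK2. CDC25A was at 15.5, 16.8 and 17.7 TPM in TRF+DDP, 12.9, 14.3 and 11.96 TPM in TRF, 7.35, 8.03 and 7.09 TPM in DDP, and 8.02, 7.02 and 6.73 TPM in CON. Every library with TRF medium was above every library without it, and DDP and CON overlapped. CDC25A rose in TRF+DDP to 2.23 times DDP (log2 fold change 1.06 ± 0.09 SE, limma adjusted p = 4.7e-07) and in TRF to 1.80 times CON (0.77 ± 0.09, limma adjusted p = 1.2e-05). Cisplatin in normal medium gave 0.04 (95% interval -0.15 to 0.24), and in TRF medium 0.33 ± 0.09 (limma adjusted p = 0.0085), under the fold of 1.5. The difference of these 2 changes, 0.29 ± 0.13, did not pass (limma adjusted p = 0.10), and without TRF replicate 2 it was 0.35 and passed (limma adjusted p = 0.0498, in a range of 0.0498 to 0.23 over 21 settings).

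RB1, the protein that holds E2F factors back until it is phosphorylated, was called in no comparison. It was at 11.02, 9.98 and 10.7 TPM in TRF+DDP, 6.29, 7.82 and 6.53 TPM in TRF, 14.7, 15.2 and 14.1 TPM in DDP, and 9.51, 9.77 and 9.51 TPM in CON. DDP was highest and TRF lowest, and TRF+DDP lay just above CON without overlap. With DDP the mean was 1.53 times that without it in both media, 0.56 ± 0.08 on the log2(TPM + 1) scale in TRF+DDP against TRF (limma adjusted p = 0.00013) and 0.57 ± 0.08 in DDP against CON (limma adjusted p = 0.00077). Those values missed the fold of 1.5 on that scale by a narrow margin and passed it with a pseudocount of 0.1 (0.62 and 0.61). With TRF medium the changes were -0.44 ± 0.08 in TRF+DDP against DDP (limma adjusted p = 0.00036) and -0.43 ± 0.08 in TRF against CON (limma adjusted p = 0.00053). The 2 changes with DDP differed by -0.01 (95% interval -0.26 to 0.24).

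E2F1, an activating E2F factor whose promoter above holds 2 E2F matches, was at 19.4, 19.4 and 18.5 TPM in TRF+DDP, 20.5, 20.2 and 21.3 TPM in TRF, 24.0, 23.0 and 23.6 TPM in DDP, and 17.3, 17.9 and 17.4 TPM in CON. The groups did not overlap, DDP was highest and CON lowest. No pairwise fold change reached 1.5. E2F1 was 0.41 ± 0.05 in DDP against CON (limma adjusted p = 0.00029), -0.11 in TRF+DDP against TRF (95% interval -0.22 to 0.00) and -0.29 ± 0.05 in TRF+DDP against DDP (limma adjusted p = 0.00027). The change with DDP was lower in TRF medium by 0.51 on the log2 scale (-0.51 ± 0.07, limma adjusted p = 0.00024).

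In all, the change with DDP differed between TRF medium and normal medium for 5 of the 10 genes: it was lower in TRF medium for CCND1, CCND3, CDK6 and E2F1 and higher for CDK2. Of all genes tested, 13.5% passed this test with a higher change in TRF medium and 16.3% with a lower one. No fold threshold was applied to this test, and with one of 1.5, CCND1 and CDK6 were the 2 genes left.

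**Figure D4:**
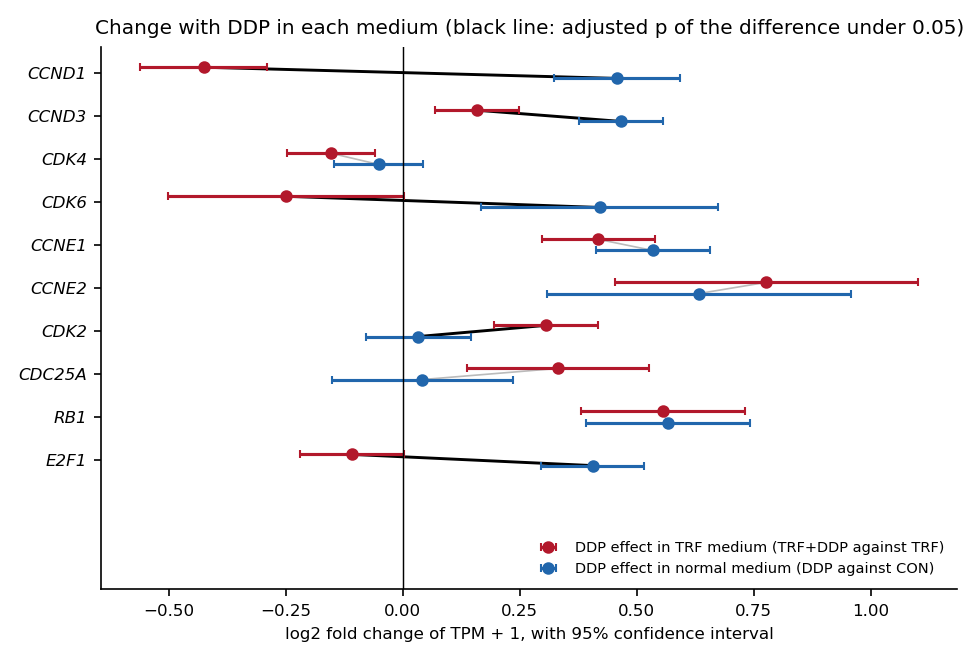
Log2 fold change of TPM + 1 with DDP (x axis, with 95% confidence intervals) for the 10 genes (y axis), in TRF medium (red, TRF+DDP against TRF) and in normal medium (blue, DDP against CON). A black line joins the 2 values where their difference had an adjusted p under 0.05, and a grey line joins the others. CCND1 lies at -0.43 in TRF medium and at 0.46 in normal medium, and RB1 at 0.56 and 0.57.

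The genes whose levels ran most like those of a called gene were found by the root mean square (RMS) difference of log2(TPM + 1) over the 12 libraries, each gene centred on its own mean, among 7742 or 7743 genes that averaged 10 TPM or more. CDC6, PSAT1 and EML2 were nearest to CCNE1, at RMS differences of 0.10, 0.10 and 0.11. MRPS30, RPF1 and LTV1 were nearest to CDC25A (0.07, 0.09 and 0.09). TOP2A, MBNL2 and ATP2B1 were nearest to CDK6 (0.07, 0.08 and 0.10), with TOP2A at a mean of 34.3 TPM in TRF+DDP, 40.1 TPM in TRF, 76.9 TPM in DDP and 61.7 TPM in CON. CHMP6, FUOM and BID were nearest to CCND1, each at 0.13. AKIP1, AP1B1 and FAM241B were nearest to CCND3, BCL2L13, CRKL and SERINC3 to CDK2, and ID3, MROH1 and PAPSS2 to E2F1, all between 0.05 and 0.07. CCND3, CDK2 and E2F1 themselves varied little over the libraries (SD 0.18, 0.16 and 0.15 on the log2 scale), while CCND1 had 0.47 and CCNE1 0.53. The RMS differences therefore do not rank how close a match is between genes of unlike spread. The nearest genes are descriptions over 12 libraries in 4 groups that every gene shares.

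Among the CDK inhibitors, CDKN1A had by far the highest level. CDKN1A encodes p21, an inhibitor of cyclin E-CDK2 that p53 induces. It was at 960.2, 929 and 949 TPM in TRF+DDP, 121, 129.7 and 126 TPM in TRF, 279.7, 268 and 278 TPM in DDP, and 116, 114 and 122 TPM in CON. TRF+DDP stood far above the other groups, DDP came next, and TRF and CON overlapped. CDKN1A rose in TRF+DDP to 3.44 times DDP (log2 fold change 1.78 ± 0.04 SE) and 7.54 times TRF (2.91 ± 0.04), and in DDP to 2.34 times CON (1.22 ± 0.04), each with a limma adjusted p of 1.2e-08 or less. The change with DDP was larger in TRF medium by 1.69 ± 0.06 (limma adjusted p = 7.7e-09).

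CDKN1B (p27), which inhibits the same kinase and is kept high in resting cells, was lower in TRF+DDP. It was at 13.8, 12.8 and 11.3 TPM in TRF+DDP, 15.8, 17.7 and 15.9 TPM in TRF, 26.1, 25.9 and 24.6 TPM in DDP, and 30.3, 31.8 and 31.5 TPM in CON. The 4 groups did not overlap. CDKN1B fell in TRF+DDP against DDP (-0.96 ± 0.07, limma adjusted p = 1.9e-07) and in TRF against CON (-0.89 ± 0.07, limma adjusted p = 6.7e-07). CDKN2C, an inhibitor of CDK4 and CDK6, fell in TRF+DDP against DDP too (-0.85 ± 0.05), so 1 of the 5 inhibitors tested rose and 2 fell, with a list median of -0.17. Among all genes 11.8% rose and 21.4% fell in this comparison, shares that also stand beside the counts of the lists below. CDKN2A was listed at 0.09 TPM or less and CDKN2B at 0.02 TPM or less in every library, and neither was tested.

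The other E2F and DP factors split in TRF+DDP against DDP. Of 9 tested, 1 rose, the repressor E2F7 (1.14 ± 0.10), and E2F2, E2F5 and the DP subunit TFDP2 fell (-0.85, -0.90 and -0.83), which is 11.1% higher and 33.3% lower, with a list median of -0.12. E2F7 was at 13.2, 14.1 and 13.6 TPM in TRF+DDP, 3.77, 5.04 and 4.0 TPM in TRF, 5.50, 6.22 and 5.28 TPM in DDP, and 3.75, 4.33 and 4.6 TPM in CON. TRF+DDP stood above all other libraries, and TRF and CON overlapped. Of the pocket proteins related to RB1 and the DREAM and MuvB subunits that repress or activate cell cycle genes, 0 of 9 rose and 3 fell: RBL2 (-1.43 ± 0.06), RBBP4 (-1.004 ± 0.059) and MYBL2 (-0.72 ± 0.05). That is 33.3% lower, against 21.4% of all genes. RBL2 (p130), the pocket protein of resting cells, was at 5.65, 6.08 and 5.6 TPM in TRF+DDP, 6.52, 7.01 and 6.47 TPM in TRF, 17.2, 17.2 and 17.5 TPM in DDP, and 17.6, 17.6 and 19.0 TPM in CON. Libraries with TRF medium were all below those without it.

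Enzymes that act on the kinases went in both directions in TRF+DDP against DDP. Of 8 tested, 2 rose, the CDK1 inhibitory kinase PKMYT1 (0.76 ± 0.08) and the kinase chaperone CDC37 (0.78 ± 0.04), and 2 fell, CDC25B (-1.25 ± 0.05) and CDC25C (-1.09 ± 0.08), the phosphatases related to CDC25A, so 25.0% of the list rose and 25.0% fell. CDC25B was at 42.8, 43.5 and 39.0 TPM in TRF+DDP, 67.8, 63.5 and 67.6 TPM in TRF, 100.8, 94.3 and 106 TPM in DDP, and 100.57, 100.03 and 97.05 TPM in CON. It was lowest in TRF+DDP and next in TRF, while CDC25A was highest in TRF+DDP and next in TRF. Of 10 genes for the turnover of cyclins and CDK inhibitors, 0 were called in TRF+DDP against DDP, and by an unadjusted p under 0.05 6 of 10 differed. By the adjusted p alone 2 were higher and 4 lower, shares near the 27.0% and 38.4% of all genes. In TRF+DDP against TRF, 1 of these 10 rose and 0 fell, while 10.2% of all genes rose and 6.1% fell. The 1 that rose was FBXW7 (1.24 ± 0.15), which directs cyclin E for destruction.

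In TRF+DDP against DDP, the gene groups downstream of the G1 kinases had lower medians than all genes tested. So did each other list around the G1 genes, though narrowly for the mitogen inputs (-0.0998 against -0.0964) and the turnover genes (-0.1008). In TRF against CON the downstream groups had higher medians than all genes. There the S and G2/M cyclins and CDK1 had 0.02 and the E2F target genes -0.06, against -0.11. Every other list around the G1 genes was also above -0.11 there, except the CDK inhibitors (-0.65). Of the 5 S and G2/M cyclins and CDK1, CCNB1 (-0.82 ± 0.04) and CCNB2 (-1.26 ± 0.05), both mitotic cyclins, fell in TRF+DDP against DDP and 0 rose, with a list median of -0.56. Of 25 E2F target genes of S phase, 2 rose, the ribonucleotide reductase subunit RRM2 (0.92 ± 0.04) and the licensing factor CDC6 (0.76 ± 0.06), the gene whose levels were nearest to CCNE1. Another 5 fell, led by MCM6 (-1.13 ± 0.07) and the DNA polymerase subunit POLA1 (-0.97 ± 0.11), and the list median was -0.36 against -0.10 for all genes. By the full rule the called shares of this list, 8.0% higher and 20.0% lower, were near those of all genes, 11.8% and 21.4%. By the adjusted p alone 5 of the 25 were higher and 16 lower, beside 27.0% and 38.4% of all genes. All 5 S and G2/M genes were lower by that measure. MCM6, a subunit of the replicative helicase, was at 24.4, 23.1 and 22.4 TPM in TRF+DDP, 35.6, 41.7 and 40.4 TPM in TRF, 51.1, 55.4 and 49.4 TPM in DDP, and 57.0, 57.7 and 52.8 TPM in CON.

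Of 9 mitogen inputs to cyclin D, 4 rose in TRF+DDP against DDP, led by the transcription factors EGR1 (3.31 ± 0.16), FOSL1 (1.94 ± 0.07) and JUN (1.47 ± 0.06), and 3 fell, with a list median of -0.10. That is 44.4% higher and 33.3% lower, against 11.8% and 21.4% of all genes. EGR1 averaged 13.2 TPM in TRF+DDP, 0.97 TPM in TRF, 0.43 TPM in DDP and 0.28 TPM in CON. It passed the filter of a mean of 1 TPM only through TRF+DDP, and the 44.4% includes it. FOSL1, an AP-1 subunit that growth factor signals induce, was at 176, 186 and 170.4 TPM in TRF+DDP, 123, 130.4 and 135 TPM in TRF, 47.5, 39.9 and 49.4 TPM in DDP, and 21.9, 21.4 and 23.8 TPM in CON. Its groups stood apart in that order, which was the order of CCNE1 and not that of CCND1, which was highest in TRF.

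**Figure D5:**
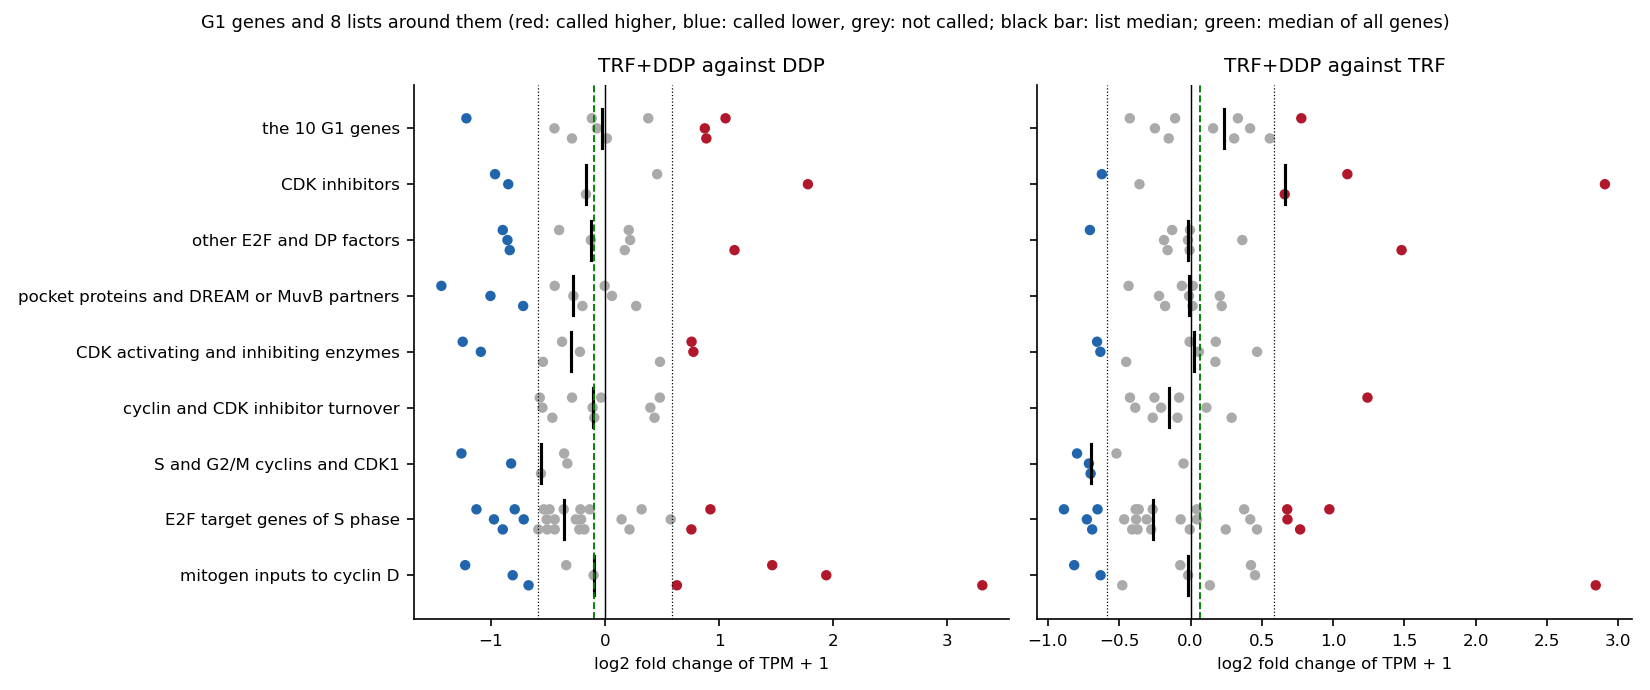
Log2 fold change of TPM + 1 (x axis) for the 10 G1 genes and 8 lists around them (y axis) in TRF+DDP against DDP and in TRF+DDP against TRF. Each point is a gene, red if called higher, blue if called lower and grey if not called, black bars are list medians, the green line is the median of all genes and dotted lines mark a 1.5-fold change. In TRF+DDP against DDP the S and G2/M cyclins have the lowest median, -0.56, and the 10 G1 genes the highest, -0.03.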

How the data were processed

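Polyadenylated RNA of 12 A549/DDP libraries in 4 groups of 3 was sequenced. After SeqPrep and sickle trimming, the authors aligned reads with HISAT2, assembled transcripts with StringTie and deposited TPM per library and the mean TPM of each group; those mean columns were not used. The submitters' notes also name edgeR. For versions, genome build, quantification tool and use of strand, the sources used here say nothing. The authors used DESeq2 for their own calls. TPM carries no depth, so count models were not used. Precision comes from the spread between the 3 libraries within each group, pooled over the 4 groups and moderated across genes.

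Symbols were matched to 60463 of 60664 Ensembl identifiers, and 238 assembled loci had none. TPM was used as log2(TPM + 1), for the 13854 genes that averaged 1 TPM or more. All 4 groups entered a single fit in limma 3.58.1 (R 4.3.3), with robust empirical Bayes moderation and a mean trend, and p-values were adjusted by Benjamini and Hochberg within each comparison. Calls needed a fold of more than 1.5 besides an adjusted p below 0.05, and the interaction (the change with DDP in TRF medium minus that in normal medium) needed the adjusted p alone. Intervals are 95% limma intervals. Paralog shares were compared with exact permutation tests within strata (400 arrangements), adjusted over 6 tests. Steps were tested on simulated data. Python 3.11.15, numpy 2.4.6, pandas 2.3.3 and matplotlib 3.10.9 were used.

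The 10 genes, the lists around them and the tests were chosen with earlier results of these data known. By rule, all 10 genes were named. CDKN1A, CDKN1B and CDKN2A were always given. From each other list up to 3 called genes with the largest change were named, or all where 5 or fewer were called. For each gene called in any comparison, the 3 genes of nearest profile were named; those of CCNE2 are not reported here. Values of further listed genes, where given, were chosen after they were seen. Alternatives were TMM-style scaling (trims of 0.3 and 0.05), quantile normalization, no filter, a stricter filter (1 TPM or more in all 12 libraries), a pseudocount of 0.1, limma without trend, a replicate block, only the groups compared, another fold threshold and each library left out. For the shares they were permutation over all libraries, the replicate block and CCND2 left out of the sum.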

Additional observations from a re-analysis of the deposited data

Results flagged for a closer look

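The change with DDP in TRF medium differed from that in normal medium for 5 of the 10 genes and for CDKN1A, by the limma test of the difference itself. The difference on the log2 scale was -0.88 for CCND1, -0.31 for CCND3, -0.67 for CDK6, -0.51 for E2F1 and 0.27 for CDK2. CCND1 was lower with DDP in TRF medium and higher with DDP in normal medium, in all 3 libraries of each group. CDKN1A, the gene of the CDK inhibitor p21, had a difference of 1.69. For CCND3, CDK2 and E2F1 the difference was under a fold of 1.5. Of all genes tested, 13.5% passed this test upward and 16.3% downward.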

How the results depend on the processing

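The calls of CCNE1, CCNE2, CDC25A and CDK6 in TRF+DDP against DDP kept their direction and passed the rule under every alternative run, with 4 genes called each time except 8 without a fold threshold. The call of CCNE2 in DDP against CON did not: 0 of the 10 genes were called there with TMM-style scaling (0.57), quantile normalization (0.54), no filter (0.63, adjusted p = 0.056) or only the groups compared (0.63, adjusted p = 0.066), and 2 with a pseudocount of 0.1, which also gave 2 in TRF+DDP against TRF (RB1 being added in both) and 5 in TRF against CON (CDK6 added, -0.66). Without a fold threshold the 10 genes gave 8, 8, 10 and 7 calls in TRF+DDP against DDP, TRF+DDP against TRF, TRF against CON and DDP against CON, and all genes gave 9056, 6639, 8412 and 1690, with 9314 in TRF+DDP against CON. With a fold over 1.5 for the interaction as well, 2 of the 10 genes and 1845 of all genes passed. As deposited, all genes called numbered 4599 in TRF+DDP against DDP, 2258 in TRF+DDP against TRF, 4866 in TRF+DDP against CON, 3540 for TRF and 279 for DDP relative to CON, and 4129 in the interaction. The share of called genes that were higher moved with quantile normalization to 48.9% (35.5% as deposited) in TRF+DDP against DDP, 49.6% (62.6%) in TRF+DDP against TRF, 49.8% (32.9%) in TRF against CON and 78.6% (92.1%) in DDP against CON, and with TMM-style scaling to 47.0%, 50.9%, 48.5% and 83.3%. The cause of these changes was not tested.

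Values near 0 changed sign. With TMM-style scaling, CCND3 became 0.0048 and CDK2 0.048 in TRF+DDP against DDP, CDK4 0.0072 and CDK2 0.0043 in TRF+DDP against CON, and CDK2 -0.044 and CDC25A -0.027 in DDP against CON. With quantile normalization CDK2 became -0.029 and CDC25A -0.062 in DDP against CON, and with a pseudocount of 0.1 the interaction of RB1 became 0.0061. Leaving out 1 library turned CDC25A in DDP against CON (-0.0042 without CON replicate 3, -0.0034 without DDP replicate 2, at most 0.11), CDK4 in TRF+DDP against DDP (-0.013 without DDP replicate 2, -0.015 without TRF+DDP replicate 1), and the interactions of CCNE2 (-0.0059 without CON replicate 1, at most 0.30) and RB1 (0.015 without DDP replicate 2, 0.074 without TRF replicate 2, 0.026 without TRF+DDP replicate 2, at least -0.064). None of these values was called in either form.

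With each library left out in turn, 4 of the 10 genes were called in TRF+DDP against DDP, 1 to 2 in TRF+DDP against TRF, 5 in TRF+DDP against CON, 4 to 5 in TRF against CON, 0 to 2 in DDP against CON and 5 to 6 in the interaction. The added calls were RB1 in TRF+DDP against TRF and in DDP against CON, CDK6 in TRF against CON and CDC25A in the interaction. Over all genes the ranges were 4535 to 4630, 2159 to 2459, 4832 to 4926, 3459 to 3775, 251 to 291 and 3459 to 4424 in the same order. The change of the CCND1 share with TRF medium ran from 12.2 to 13.2 points and with DDP from -5.43 to -4.40, that of the CDK6 share from -1.81 to -1.56 and from 0.317 to 0.576, and that of the CCNE2 share from -0.520 to 0.797 and from 2.19 to 3.64. Without CON replicate 1 the change of the CCNE2 share with DDP passed (3.64, adjusted p = 0.02), as it did when permuting over all libraries (2.95, adjusted p = 0.043).

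No variation shared by replicate number was seen. Over 18 pairs of same-numbered libraries, the correlation of deviations from the group means ran from -0.082 to 0.080, with 0 pairs over 0.1. Of 12 libraries, 2 correlated best with their own number. Whether same-numbered samples were handled together is not stated. With the replicate block, 4, 1, 5, 4, 1 and 5 of the 10 genes and 4590, 2266, 4864, 3544, 274 and 4071 of all genes were called. With the replicate block the changes of the CCND1 share (12.8 points) and of the CDK6 share (-1.71 points) with TRF medium had an exact adjusted p of 0.094. Before adjustment their p was the smallest this design allows. No other call changed. Depth is unknown, so low genes such as CCNE2 and CDK6 carry counting error that cannot be stated.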

Other observations

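The S phase genes that E2F factors drive were divided by the test of the difference between the changes with DDP in the 2 media. Of 25, 6 had a higher change in TRF medium and 13 a lower one, beside 13.5% and 16.3% of all genes tested. PCNA, the replication clamp and a p53 target, was at 509, 467 and 495 TPM in TRF+DDP, 249, 247 and 252 TPM in TRF, 325, 342 and 318 TPM in DDP, and 240.5, 245 and 220.2 TPM in CON. TRF+DDP stood above all other libraries, DDP came next, and TRF and CON did not overlap. UHRF1, which links DNA methylation to replication, was at 39.5, 39.5 and 37.5 TPM in TRF+DDP, 71.8, 74.3 and 71.9 TPM in TRF, 57.7, 55.2 and 54.4 TPM in DDP, and 47.5, 50.4 and 52.5 TPM in CON. It was highest in TRF and lowest in TRF+DDP. The difference between the 2 changes with DDP was 0.49 for PCNA and -1.04 for UHRF1, both past the limma test. PCNA and UHRF1 were chosen after their values were seen.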
